A study of Mus musculus with 6 samples.

Results

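Regulatory T cells (Tregs) among the CD45+ cells of B16-F10 tumors were identified barcode by barcode, and were chosen by their UMIs of Foxp3 and of genes of other cells. A barcode was counted as a Treg when it held 600 to 4000 genes and at most 10% mitochondrial UMIs, at least 1 UMI of Cd3d, Cd3e or Cd3g, at least 1 UMI of Foxp3, no UMI of Cd8a or Cd8b1, at most 1 UMI of Mki67 and Top2a together, Malat1 below 1.5% of its UMIs, no UMI of the B cell genes Cd79a, Cd79b and Ms4a1, and at most 1 UMI of the macrophage genes C1qa, C1qb and C1qc. A UMI is a molecular tag that marks a single captured transcript. This rule found 155 Tregs among 52899 deposited barcodes, of which 30067 passed the limits on genes and mitochondrial UMIs. The αPD-1 samples held 24, 21 and 24 Tregs (replicates 1 to 3), and the αPD-1 + corin samples held 26, 49 and 11.

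Tregs are CD4 T cells that restrain other immune cells. Their identity is maintained by the transcription factor Foxp3, and they take up IL-2 through a receptor whose high-affinity chain is encoded by Il2ra, block costimulation through Ctla4, and secrete the inhibitory cytokine Il10. In tumors they often carry an activated, effector phenotype, with TNF receptor family members such as Tnfrsf4, Tnfrsf9 and Tnfrsf18 and the chemokine receptor Ccr8, and they are known as a barrier to checkpoint blockade. Resting Tregs resemble naive T cells and carry genes such as Tcf7, Lef1 and Klf2.

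The study asked how corin, an inhibitor of the CoREST complex (the histone demethylase LSD1, histone deacetylases and the scaffold RCOR1), changes the immune cells of melanoma when it is added to PD-1 blockade. Female C57BL/6 mice aged 6 to 10 weeks carried tumors of B16-F10, a transplanted mouse melanoma line. The mice of both groups were given an antibody to PD-1, at 150 μg and 3 times a week, starting on day 7. The αPD-1 + corin group also received 200 μg of corin daily from day 6, and the vehicle was 5% DMSO. Each treatment arm had 10 mice. From which of these, and from how many, each of the 3 samples per group came is not stated in the labels. Samples without αPD-1 were not analysed here, so corin was measured on top of PD-1 blockade. Tumors were dissociated enzymatically, frozen and thawed, and CD45+ cells were taken with magnetic beads before about 23000 cells were loaded for 5′ single-cell RNA-Seq.

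The 6 libraries held between 52281422 and 84276739 UMIs, and their Tregs summed to between 45513 and 231006 UMIs. The median Treg held 2509.5 to 3190 UMIs with αPD-1 and 2304.5 to 3823 with αPD-1 + corin. Libraries differed in ways that touch the Tregs. αPD-1 + corin replicate 1 gave 8310 barcodes within the limits and the other libraries between 3763 and 4931, αPD-1 + corin replicate 3 gave 1047 T cells and the others between 290 and 557, and αPD-1 + corin replicate 2 alone held 49 of the 155 Tregs. A total of 299 barcode sequences occurred in more than 1 library, and no Treg barcode was a Treg in 2 libraries.

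The label was checked on markers other than Foxp3, which chose the cells. Foxp3 itself (chromosome X, 7439883 to 7461484) was sparse, with exactly 1 UMI in 81 of the 155 Tregs (52.3%), 2 UMIs in 32 and 3 or more in 42, and a maximum of 9. Its background in B cells was low, but it was read mostly from αPD-1 cells. Replicates 1 to 3 gave 804, 648 and 1034 B cells with αPD-1 and 60, 57 and 22 with αPD-1 + corin. A Foxp3 UMI was found in 0.114% of 2625 B cells (95% Wilson interval 0.0389 to 0.335), which should lack it, at median depths of 1328.5 to 3084.5 UMIs per cell. T cells without a Cd8a or Cd8b1 UMI held it in 10.1% of 1530, at median depths of 1870 to 2706. The rule made every such cell with a Foxp3 UMI a Treg, so the 10.1% is set by the rule and is no check of the label. T cells with a Cd8a or Cd8b1 UMI held it in 1.75%. These intervals cover counting error only. A Cd4 UMI was seen in 73 of the 155 Tregs (47.1%). At the edges of the rule, 32 Tregs had Malat1 at 1% to 1.5% of their UMIs and 16 barcodes that met every other term were left out at 1.5% to 2%, and 11 Tregs held 1 C1q UMI while 43 barcodes with 2 or more were left out, 15 of them in αPD-1 + corin replicate 1.

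To show where Tregs differ from the cells most like them, they were set against the 277 Foxp3-negative CD4 T cells of the same samples (the same rule with no Foxp3 UMI and at least 1 Cd4 UMI). UMIs were summed per sample and class, and levels are given as CPM, the UMIs of a gene scaled to the same total in every sum. The edgeR test with sample as a block called 66 of 1567 genes (4.21%) at an adjusted p below 0.05, 37 higher (2.36%) and 29 lower (1.85%) in Tregs, and 168 (10.7%) had the same sign in all 6 samples, 122 of them higher (7.79%). Of the 5 markers besides Foxp3, 4 had enough counts to be tested and 3 were called, Il2ra, Ctla4 and Ccr8, with a median log2 fold change of 1.91 against -0.02 over all genes tested.

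Il2ra (chromosome 2, 11647618 to 11698004) stood at 324, 189 and 162 CPM in the Tregs of αPD-1 replicates 1 to 3 and at 255, 225 and 505 CPM in αPD-1 + corin replicates 1 to 3. The Foxp3-negative CD4 T cells of the same samples held 21.5, 40.1 and 32.3 CPM and 138, 62.8 and 44.1 CPM. Every Treg value lay above every Foxp3-negative value, and the difference was 2.20 ± 0.325 on the log2 scale (SE, adjusted p = 0.000791). Ctla4, the costimulation brake, stood at 1072, 1652, 823, 564, 1147 and 1186 CPM in Tregs (αPD-1 replicates 1 to 3, then αPD-1 + corin replicates 1 to 3) and at 194 to 474 CPM in the comparator. It was higher in Tregs in 6 of 6 samples (log2 1.75 ± 0.238, adjusted p = 0.000511). Ccr8 stood at 114 to 182 CPM in Tregs and 4.45 to 66.2 CPM in the comparator, so the ranges did not overlap (log2 2.07 ± 0.322, adjusted p = 0.00116).

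Izumo1r, the folate receptor family member also called FR4, was higher in the Tregs of 5 of 6 samples, at 99.6 to 328 CPM against 69.8 to 142 CPM. It missed the threshold (log2 0.80 ± 0.224, adjusted p = 0.0598) and passed it without αPD-1 + corin replicate 1 (adjusted p = 0.0222). Il10 was too sparse to be tested, at 201, 151 and 0 CPM in the αPD-1 Tregs and 77.5, 121 and 198 CPM in the αPD-1 + corin Tregs, against 31.2 to 78.6 CPM in the comparator. The 0 of αPD-1 replicate 3 came from 24 cells, which allows a share of cells with a UMI of up to 12.5%. Il10 was thus the marker that could not be tested, and Izumo1r the tested marker that was not called.

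**Figure D1:**
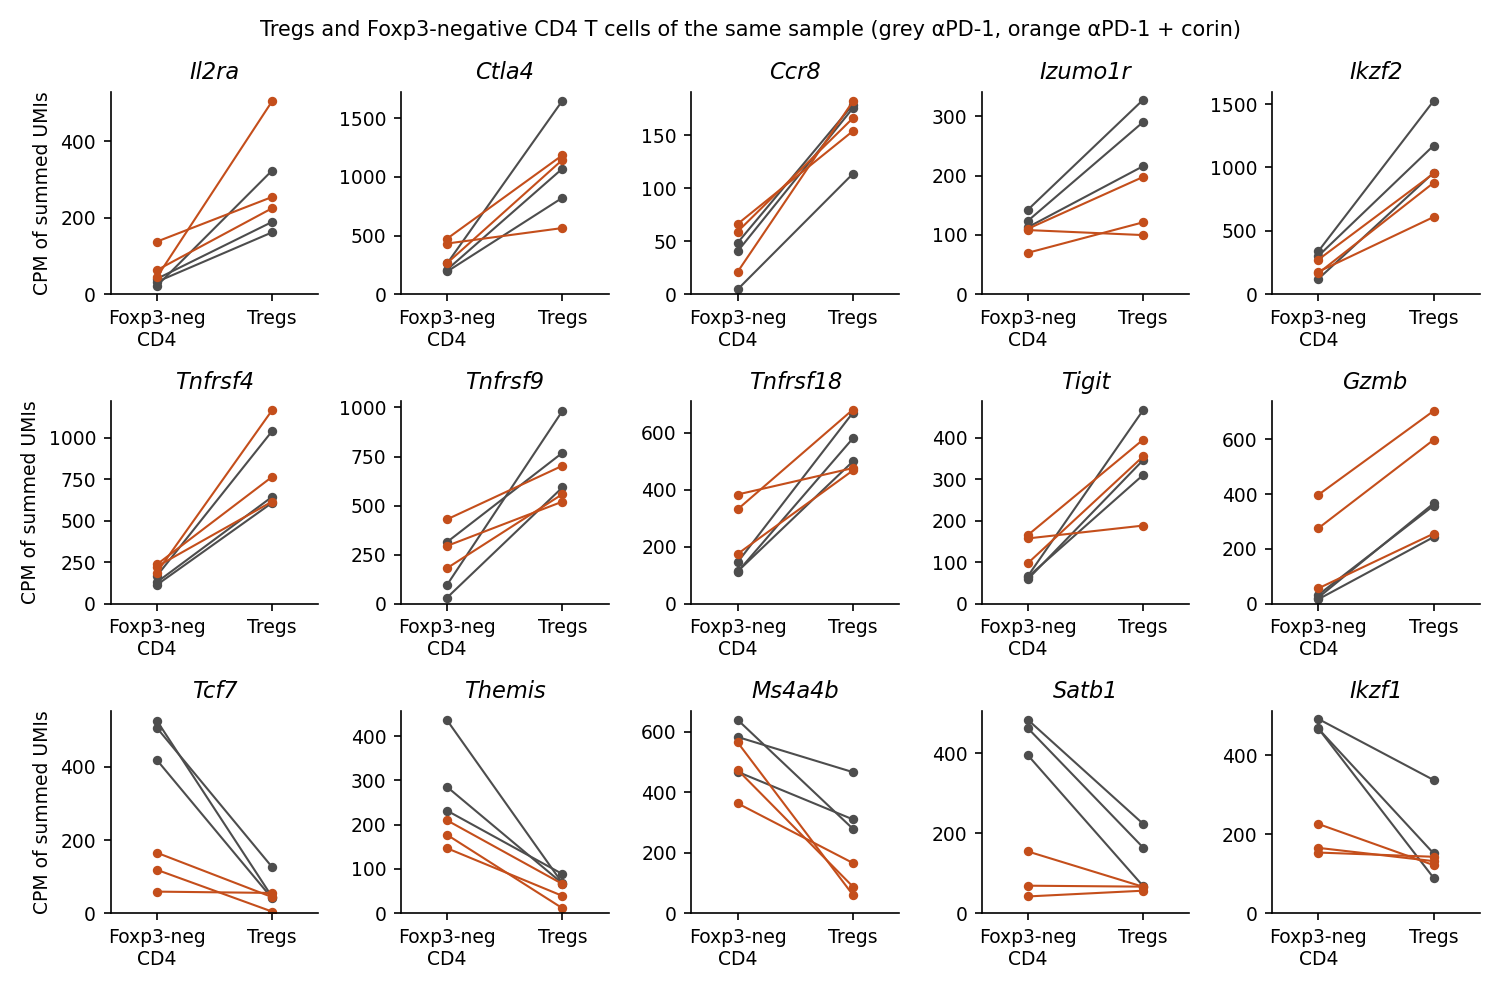
CPM of summed UMIs (vertical axis, from 0) of 15 genes in the Foxp3-negative CD4 T cells and the Tregs of each sample, with a line joining the classes of a sample, grey for αPD-1 and orange for αPD-1 + corin. The lines of Il2ra, Ctla4, Ccr8, Ikzf2, the TNF receptor genes, Tigit and Gzmb climb in all 6 samples, while Tcf7, Themis and Ms4a4b descend in all 6 and Satb1 descends in 5.

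Among the genes higher in Tregs were several of the effector state. Of 28 effector Treg genes, 13 were tested, 6 were called higher and none lower, with a median log2 fold change of 0.57. They were Ikzf2, Tnfrsf4, Tnfrsf9, Tnfrsf18, Tnfrsf1b and Tigit. Ikzf2 encodes Helios, a transcription factor that stabilizes Tregs, and stood at 1173, 959, 1525, 609, 952 and 879 CPM in Tregs against 120 to 339 CPM, which put every Treg sum above every comparator sum (log2 2.07 ± 0.185, adjusted p = 1.01e-05). Tnfrsf4 (OX40) stood at 607 to 1164 CPM in Tregs and 113 to 236 CPM in the comparator (log2 2.08 ± 0.197, adjusted p = 1.22e-05). Tnfrsf9 (4-1BB) rose by 1.77 and Tnfrsf18 (GITR) by 1.46 on the log2 scale, and the ranges of Tnfrsf18 did not overlap, at 468 to 681 CPM against 111 to 383 CPM. Tigit, an inhibitory receptor, was higher by 1.77 (adjusted p = 0.00107), at 188 to 467 CPM against 59.2 to 165 CPM. The list of TNF receptor and NF-kB genes had 12 of 19 members tested and the same 4 receptors called, while its signalling members were not called. Nfkbia, the inhibitor that NF-kB itself induces, was at 1206 to 2308 CPM in Tregs and 1097 to 2569 CPM in the comparator.

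Among suppressive mediators, 5 of 16 genes were tested and 2 were called higher, Ctla4 and Gzmb. Gzmb, the protease of cytotoxic granules that Tregs can also use, stood at 357, 366 and 243 CPM in the αPD-1 Tregs and 598, 255 and 703 CPM in the αPD-1 + corin Tregs. The comparator held 32.3, 22.3 and 16.1 CPM and 275, 55.8 and 397 CPM, so replicates 1 and 3 of αPD-1 + corin reached the Treg range while its other samples did not. The fitted difference was 2.01 ± 0.335 (adjusted p = 0.0021, and 0.199 without the sample block). Of the receptor chains for IL-2, Il2rb also passed the edgeR test (log2 0.95 ± 0.225, adjusted p = 0.0249) but not that of DESeq2, and the common chain Il2rg did not (log2 0.22, adjusted p = 0.511). Itgav, an integrin chain that helps to activate TGF-β, was higher in 6 of 6 samples, at 268 to 553 CPM against 125 to 408 CPM (log2 1.14 ± 0.199, adjusted p = 0.00309), and Tgfbr2, the TGF-β receptor chain, was lower by edgeR and not called by DESeq2 (log2 -1.05, adjusted p = 0.041). Pglyrp1, an innate peptidoglycan-binding protein, and Serpina3g, an intracellular protease inhibitor, were higher by 1.77 and 1.73.

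Among the genes lower in Tregs were several of the resting and naive state. Of 20 resting Treg genes, 9 were tested, all 9 had a negative sign, and 4 were called, Tcf7, Ms4a4b, Gramd3 and Satb1 (median log2 -0.84), of which DESeq2 called Tcf7 and Ms4a4b. Tcf7, a transcription factor of naive and memory T cells, stood at 44.7, 126 and 40.5 CPM in the αPD-1 Tregs and 55.3, 4.33 and 43.9 CPM in the αPD-1 + corin Tregs. The comparator held 527, 507 and 419 CPM and 58.9, 119 and 165 CPM, and αPD-1 + corin replicate 1 had nearly equal levels in both classes (log2 -2.69 ± 0.359, adjusted p = 0.000511). Themis, a signalling protein of the T cell receptor pathway, was lower in 6 of 6 samples, at 11.1 to 88.3 CPM against 147 to 436 CPM (log2 -2.20 ± 0.272, adjusted p = 0.000268). Evl, Maml2, Aff3, Asap1 and Ikzf1 were lower by 1.08 to 1.91 on the log2 scale. Satb1, a chromatin organizer that is held low in Tregs, was lower in 5 of 6 samples (log2 -1.25, adjusted p = 0.0215) and was called in 8 of 13 alternatives. Of all these genes DESeq2 did not call Aff3, Asap1, Ikzf1, Satb1 and Gramd3.

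The other lists gave few calls. Genes of T cell receptor signalling (16 tested, median log2 -0.14) included Tnfrsf9, which was higher, and the phosphatase Dusp2, which was lower by edgeR and not called by DESeq2 (log2 -0.80, adjusted p = 0.041). Among 12 tested interferon-stimulated genes, Ly6a and Gbp7 were higher, Ly6a also by DESeq2. Ltb was the only 1 of 16 conventional T cell cytokines that was tested and was at the threshold (log2 0.69, adjusted p = 0.0496), called in 3 of 17 alternatives. Of the 16, 6, namely Il2, Il5, Il13, Il17a, Il17f and Il22, had no UMI in the 155 Tregs, which allows a share of cells with a UMI of up to 1.94%. No gene of glycolysis and hypoxia (14 tested), of MHC class I (15 tested) or of the CoREST complex (2 tested, Hdac1 and Phf21a) was called by edgeR or DESeq2. In edgeR 2, 6 and 2 of them had an unadjusted p below 0.05, against 281 of all 1567 genes. Of the 15 MHC class I genes, 14 had a positive sign. All 16 tested genes of dissociation stress had a negative sign and Junb was called (log2 -0.62, adjusted p = 0.0318). Of other lineages, the macrophage and monocyte list had 4 positive and 6 negative signs (median log2 -0.06), the CD8 and NK list 3 of 3 positive (0.75, 2 with an unadjusted p below 0.05), the B cell list 3 of 3 positive (0.20) and the single tested neutrophil gene was at -0.94. Leaving out αPD-1 replicate 1, 2 or 3 left 37, 30 or 37 calls, and DESeq2 called 34 of the 66 genes and no other. Without the sample block 19 genes were called, and a comparator that needed no Cd4 UMI gave 370 calls among 5356 genes tested.

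Within the Tregs the effector and resting programs were unevenly spread. Over 28 effector and 20 resting genes, more effector than resting UMIs were held by 20 of 24, 16 of 21 and 19 of 24 Tregs with αPD-1 and by 24 of 26, 49 of 49 and 9 of 11 Tregs with αPD-1 + corin. The median Treg held 7.5, 7 and 7.5 resting UMIs with αPD-1 and 2.5, 3 and 4 with αPD-1 + corin. When each cell was thinned to 1000 UMIs, the share of Tregs with no resting UMI was 29.2%, 19.0% and 16.7% with αPD-1 and 38.5%, 49.0% and 36.4% with αPD-1 + corin. The groups were fully separated in the unthinned median and in the thinned share. Without thinning the share with no resting UMI overlapped, at 8.33%, 9.52% and 8.33% against 11.5%, 22.4% and 9.09%, and the thinned share with more effector than resting UMIs overlapped too, at 91.7%, 81.0% and 66.7% against 92.3%, 89.8% and 81.8%. Thinning evens out depth and leaves in place any transcripts of other cells in a barcode, which are described below. These per-cell counts are a description and were not tested.

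**Figure D2:**
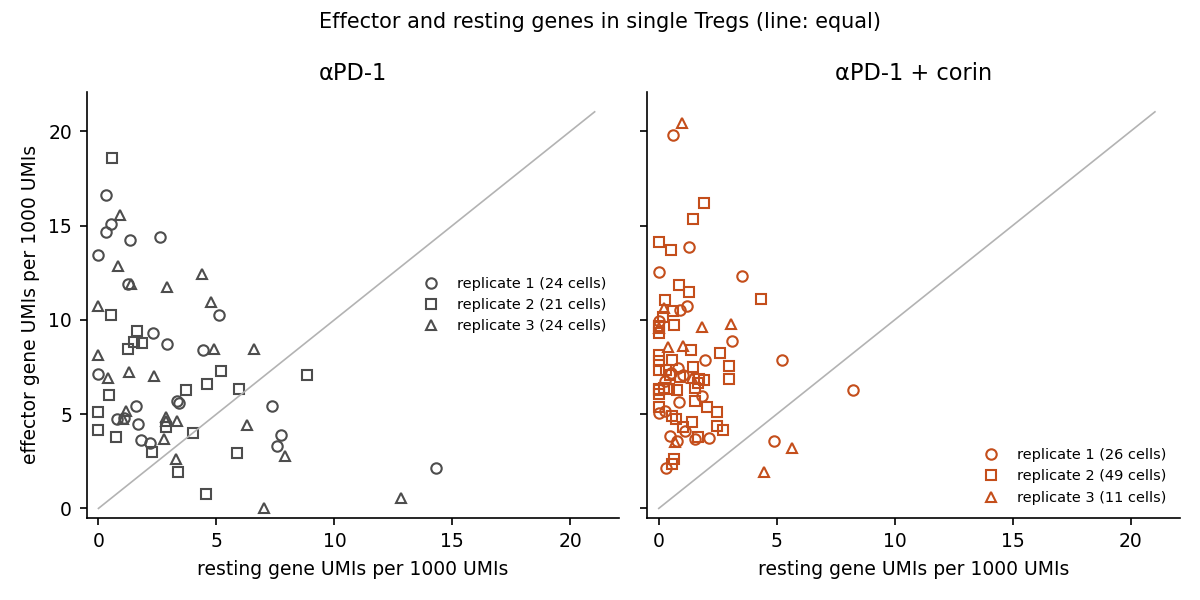
Each point is a Treg, with UMIs of 20 resting genes on the horizontal axis and of 28 effector genes on the vertical axis, both per 1000 UMIs of that cell, for αPD-1 (left) and αPD-1 + corin (right), the shape of the point giving the replicate and the line marking equal values. Most Tregs lie above the line in both groups, and the αPD-1 panel holds more of the Tregs far to the right. More resting than effector UMIs were held by 16.7%, 19.0% and 20.8% of the Tregs of αPD-1 replicates 1 to 3. With αPD-1 + corin these shares were 7.69%, 0% and 18.2%, so the groups overlap.

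Tregs as a share of CD4 T cells (Tregs plus Foxp3-negative CD4 T cells) were 25.8%, 22.6% and 34.3% with αPD-1 and 47.3%, 61.3% and 26.8% with αPD-1 + corin. Only the Foxp3-negative cells needed a Cd4 UMI. It was held by 73 of the 155 Tregs, from 27.3% in αPD-1 + corin replicate 3 to 58.3% in αPD-1 replicate 1. These shares thus depend on how often Cd4 was detected. Replicates 1 and 2 of αPD-1 + corin lay above all αPD-1 samples and replicate 3 lay among them. The means were 27.6% ± 6.05 and 45.1% ± 17.3 (SD, n = 3 each), a difference that did not exceed the spread between samples (2-sided exact permutation test, p = 0.2, and 0.6 after adjustment over 3 shares). With 3 samples against 3 this test cannot give a p below 0.1. As a share of all T cells, Tregs were 4.40%, 3.77% and 5.35% against 8.97%, 13.6% and 1.05%. The last of these, from αPD-1 + corin replicate 3 with its 1047 T cells, was the lowest of all samples while replicates 1 and 2 of that group were the highest (4.50% ± 0.793 against 7.89% ± 6.37, exact permutation p = 0.4). Among all cells within the limits Tregs were 0.538%, 0.558% and 0.542% against 0.313%, 1.17% and 0.223% (exact permutation p = 1). Without αPD-1 + corin replicate 3 the mean share of that group was 54.3% of CD4 T cells and 11.3% of T cells (exact permutation p = 0.2 for each, the smallest that 3 samples against 2 can give, with no overlap between the groups). Without αPD-1 + corin replicate 2 it was 5.01% of T cells and 0.268% of all cells, the latter now below αPD-1. The edgeR quasi-likelihood test on numbers of cells, in place of the permutation test, gave a log2 ratio of 0.79 for the share of CD4 T cells (p = 0.0418 before adjustment over the 3 shares). When Foxp3-negative cells needed no Cd4 UMI, the difference in that share was 4.97 percentage points in place of 17.6.

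**Figure D3:**
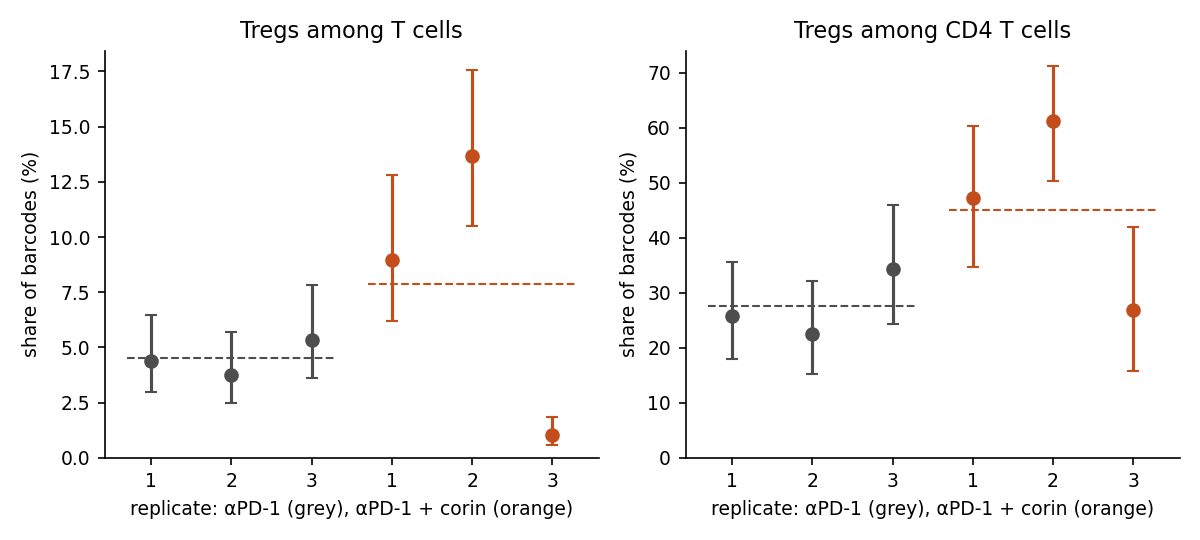
Tregs as a percentage of T cells (left) and of CD4 T cells (right) in each sample, grey for αPD-1 and orange for αPD-1 + corin, with 95% Wilson intervals as bars and the group mean as a dashed line. The αPD-1 samples sit between 3.77% and 5.35% of T cells, and the αPD-1 + corin samples spread from 1.05% to 13.6%.

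Between treatments, 8 of 1455 genes tested in Tregs were called by edgeR (0.55%), 3 higher (0.206%) and 5 lower (0.344%) with αPD-1 + corin, while 160 had an unadjusted p below 0.05. The lower genes included 3 heat shock genes. Hspa1b and Hspa1a, neighbouring and nearly identical genes for inducible Hsp70 on chromosome 17 (35175412 to 35178214 and 35188166 to 35191132), cannot be told apart by reads that match both, so the split of counts between them is uncertain. Hspa1b stood at 1284, 757 and 823 CPM with αPD-1 and 166, 139 and 330 CPM with αPD-1 + corin, and fell by 2.32 ± 0.329 on the log2 scale (SE, adjusted p = 0.00963). Hspa1a stood at 1206, 580 and 864 CPM against 210, 156 and 330 CPM (log2 -2.04 ± 0.337, adjusted p = 0.0225). Dnajb1, the Hsp40 cochaperone that works with Hsp70 (chromosome 8, 84334811 to 84339820), stood at 972, 921 and 459 CPM against 199, 90.9 and 176 CPM (log2 -2.43 ± 0.363, adjusted p = 0.0116). For all 3 genes each αPD-1 sample lay above each αPD-1 + corin sample, a pattern that 137 of the 1455 genes (9.42%) showed, while 105 (7.22%) were separated the other way, 16.6% in all. They belong to a list of 16 dissociation stress genes, all of which were tested. The other 13, among them Fos and Junb, were not called and split into 7 with a positive and 6 with a negative sign. The summed list of 16 stood at 11682 to 13812 CPM against 8844 to 10692 CPM, and without the 3 called genes at 8220 to 11554 CPM against 8459 to 10116 CPM, which overlap. Hspa1b and Dnajb1 were each called in 14 of 18 alternatives and Hspa1a in 11 of 18. All 3 lost the call without αPD-1 + corin replicate 2 and with equal numbers of Tregs per sample. They also lost it with at least 2 Foxp3 UMIs and with at least 2000 UMIs. Hspa1a lost it further without αPD-1 replicate 3, without αPD-1 + corin replicate 1 and with no UMI of other lineages. Handling of the tissue and treatment cannot be told apart here.

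Aff3, which encodes a nuclear protein of lymphocytes (chromosome 1, 38214515 to 38704036), stood at 201, 202 and 216 CPM with αPD-1 and 21.6 to 33.2 CPM with αPD-1 + corin, and fell by 2.94 ± 0.388 on the log2 scale (adjusted p = 0.00726). The αPD-1 + corin values rest on 3, 5 and 1 UMIs. Ifi213, of an interferon-inducible gene family whose members are alike enough to share reads (chromosome 1, 173393846 to 173426881), stood at 190, 139 and 162 CPM against 44.3, 30.3 and 43.9 CPM (log2 -2.10 ± 0.39, adjusted p = 0.0389). Ifi213 lost its call in 9 of 14 alternatives, with DESeq2 (and with any sample left out) among them, at an adjusted p of up to 0.247, whereas Aff3 lost it in 2 of 13, without αPD-1 replicate 3 and without αPD-1 + corin replicate 2. Aff3 was lower in the Foxp3-negative CD4 T cells of the αPD-1 + corin group as well (log2 -2.55 ± 0.27, adjusted p = 0.000642), as were Hspa1b (log2 -1.98, adjusted p = 0.00454), Hspa1a (log2 -1.94, adjusted p = 0.0113) and Ifi213 (log2 -1.48, adjusted p = 0.0209).

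The 3 genes that rose were Ifitm1, H2-DMa and Lyst. Ifitm1, of the interferon-induced transmembrane family (chromosome 7, 140546316 to 140549743), stood at 11.2, 75.7 and 0 CPM with αPD-1 and 1251, 641 and 747 CPM with αPD-1 + corin (log2 4.90 ± 0.571, adjusted p = 0.00447). H2-DMa, a chain of the protein that loads peptides onto MHC class II (chromosome 17, 34338515 to 34358958), stood at 67.0, 50.5 and 40.5 CPM against 410, 212 and 242 CPM (log2 2.41 ± 0.416, adjusted p = 0.0277). Lyst, a regulator of lysosomal trafficking (chromosome 13, 13764902 to 13953388), stood at 44.7, 63.1 and 40.5 CPM against 166, 247 and 176 CPM (log2 2.09 ± 0.386, adjusted p = 0.0389). The groups did not overlap for any of the 3. DESeq2 called Ifitm1 and H2-DMa and not Lyst, which was called in 6 of 15 alternatives and was lost when any sample but αPD-1 + corin replicate 3 was left out, while H2-DMa was called in 9 of 14 and lost without αPD-1 replicate 2 or 3 or αPD-1 + corin replicate 1 or 2. MHC class II is loaded in antigen-presenting cells, and other transcripts of those cells were present in the same barcodes. The source of the H2-DMa UMIs was not tested.

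**Figure D4:**
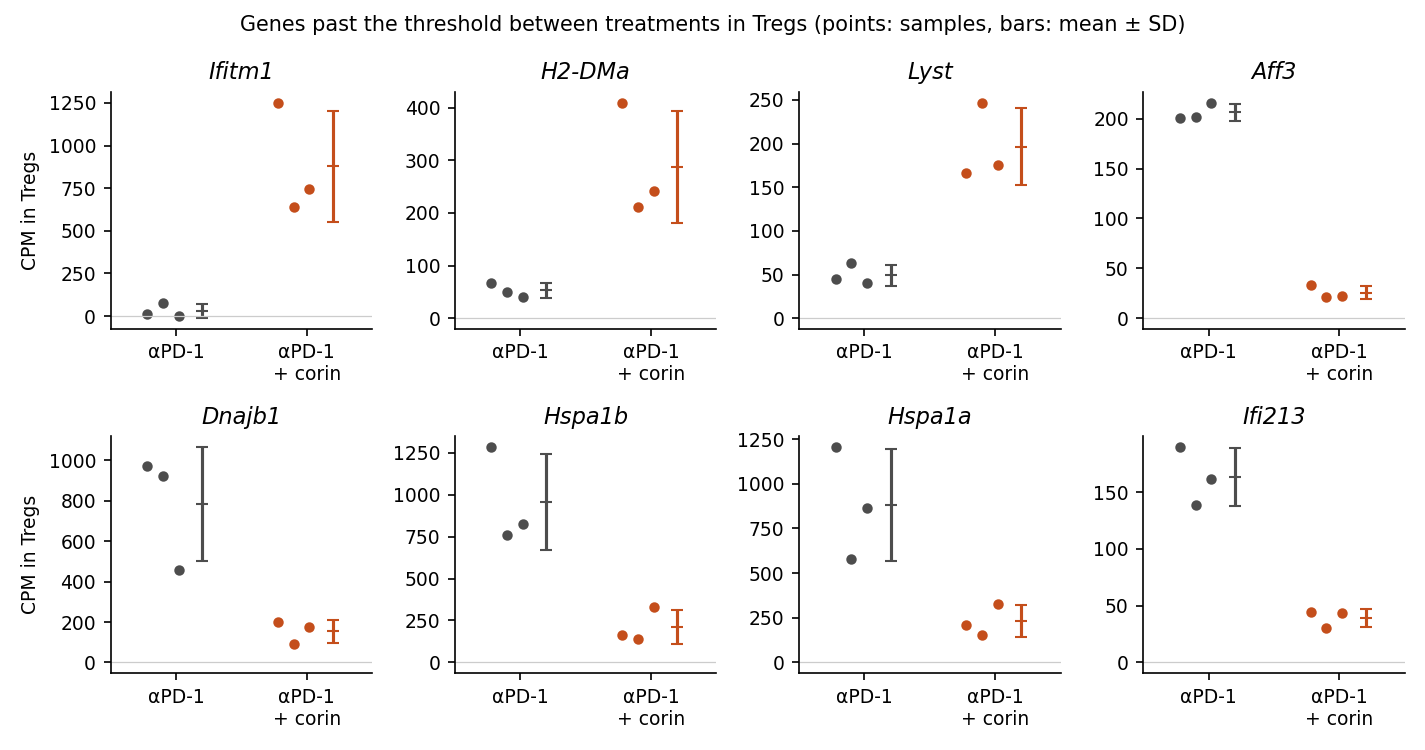
CPM in the Tregs of each sample for the 8 called genes, grey for αPD-1 and orange for αPD-1 + corin, with each group's mean ± SD (n = 3) beside its points and a grey line at 0. In all 8 panels the samples of the groups are fully separated, from 0 to 75.7 CPM against 641 to 1251 CPM for Ifitm1 down to 139 to 190 CPM against 30.3 to 44.3 CPM for Ifi213.

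The barcodes that met the Treg rule were therefore counted for 5 genes of antigen-presenting cells, Cst3, Cd74, H2-Aa, H2-Ab1 and H2-Eb1. At least 10 UMIs of these genes together were found in 37 of 155 Tregs (23.9%), namely 3 of 24, 2 of 21 and 4 of 24 with αPD-1 and 11 of 26, 14 of 49 and 3 of 11 with αPD-1 + corin. These were 12.5%, 9.52% and 16.7% against 42.3%, 28.6% and 27.3%, so the groups did not overlap, and the Foxp3-negative CD4 T cells showed the like, with 14 of 187 (7.49%) against 26 of 90 (28.9%). The Tregs that held at least 10 were deeper, with sample medians of 4461.5 to 8284 UMIs against 2034 to 3037 for the others. Of the 295 Ifitm1 UMIs in the αPD-1 + corin Tregs, 282 (95.6%) lay in barcodes with at least 10 such UMIs, and of the 97 H2-DMa UMIs 91 did (93.8%). Those barcodes held 51.7% of all UMIs of the αPD-1 + corin Tregs, 58.8% of the Lyst UMIs (47 of 80) and 29.3% of the Foxp3 UMIs (56 of 191). With αPD-1, barcodes with at least 10 such UMIs held 21.7% of all Treg UMIs. Of the lists of other lineages, the macrophage and B cell sums did not overlap between the groups and the others did. The 14 macrophage and monocyte genes summed to 3027 to 4251 CPM against 4856 to 12806 CPM in Tregs. All 8 that were tested had a positive sign. None was called by edgeR and 3 had an unadjusted p below 0.05, against 160 of all 1455 genes. Neutrophil genes summed to 112 to 958 CPM against 154 to 11788 CPM, with S100a9 at 0 UMIs in the 69 αPD-1 Tregs and 1063 UMIs in the αPD-1 + corin Tregs, 1021 of them in replicate 2, while αPD-1 + corin replicate 3 was at 154 CPM of the list. The B cell list summed to 1211 to 4590 CPM against 4892 to 9961 CPM and was mostly Cd74, the CD8 and NK list to 2010 to 3671 CPM against 3022 to 6789 CPM, and melanoma genes were at 145 to 202 CPM against 86.6 to 188 CPM. Of 3 tested CD8 and NK genes, 2 had a positive sign (median log2 1.02) and 2 had an unadjusted p below 0.05. None of the 3 was called by edgeR. Whether such barcodes hold more than 1 cell, or transcripts taken up from lysed cells, was not tested.

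**Figure D5:**
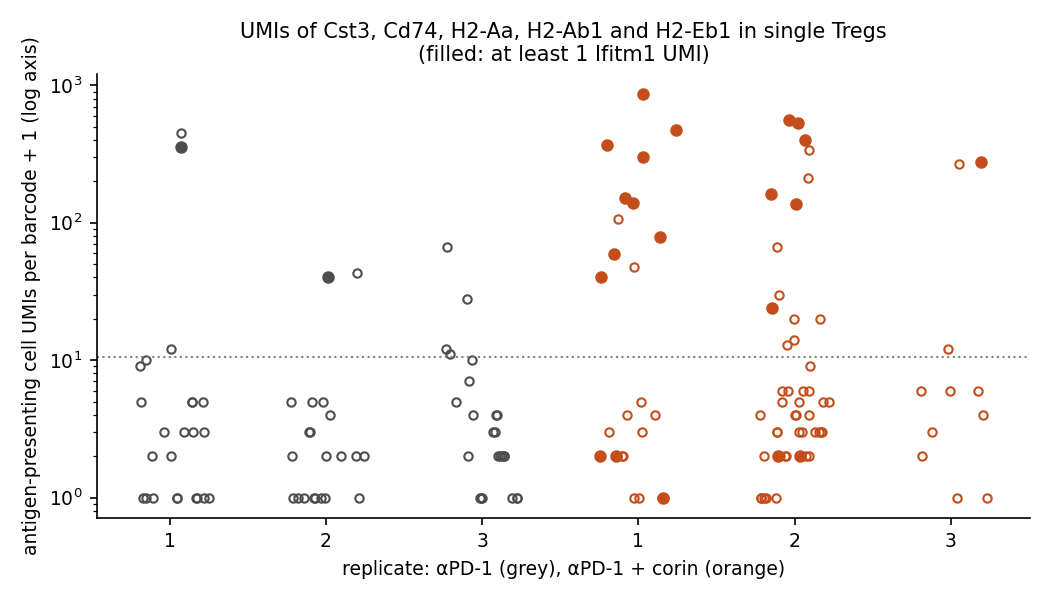
UMIs of Cst3, Cd74, H2-Aa, H2-Ab1 and H2-Eb1 in each Treg, plus 1 and on a log axis, by replicate, grey for αPD-1 and orange for αPD-1 + corin, filled where the Treg held at least 1 Ifitm1 UMI, with a dotted line between 9 and 10 UMIs. Above the line lie 9 of 69 αPD-1 and 28 of 86 αPD-1 + corin Tregs, and all but 5 of the 23 filled points.

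When only Tregs with under 10 such UMIs were kept, Ifitm1 and H2-DMa no longer had enough counts to be tested, and the 3 heat shock genes were the 3 that were called, Hspa1b at log2 -2.80, Hspa1a at -3.11 and Dnajb1 at -2.68 (adjusted p = 0.00829, 0.00829 and 0.00712). Lyst was at log2 3.96 with an adjusted p of 0.0631. This rests on 2 Lyst UMIs with αPD-1 and 33 with αPD-1 + corin, 20 of them in replicate 2. The count of calls rested on single libraries, with 5, 1 and 21 genes when αPD-1 + corin replicate 1, 2 or 3 was left out, and Ifitm1 was the call that remained without replicate 2. DESeq2 called 13 genes, 6 of them among the 8. Each of the 8 genes kept its direction in every alternative in which it was tested, and the number of alternatives in which it was called ranged from 5 of 14 for Ifi213 to 16 of 16 for Ifitm1.

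No Treg marker was called between treatments by edgeR or DESeq2, and 1, Izumo1r, had an unadjusted p below 0.05. Il2ra was at 0.41 (adjusted p = 0.746), Ccr8 at 0.18 and Il10 at 0.05, and Ctla4 was at -0.26 on the log2 scale. Barcodes with at least 10 antigen-presenting cell UMIs held 6 of 30 Il10 UMIs (20%) with αPD-1 and 27 of 44 (61.4%) with αPD-1 + corin. Foxp3, given as a value only, stood at 581, 593 and 459 CPM against 454, 567 and 417 CPM. Izumo1r stood at 290, 328 and 216 CPM with αPD-1 and 99.6, 121 and 198 CPM with αPD-1 + corin, without overlap and short of the threshold (log2 -1.06 ± 0.309, adjusted p = 0.184). On simulated counts this edgeR fit found 61 of 200 genes changed 2-fold (30.5%), with 2 false calls. At 4-fold it found 166 of 200 (83%), with 15 false calls. The lack of calls for markers and for the lists below is thus not shown to be a lack of change.

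Resting genes had the largest median shift of the T cell lists, leaving aside the lists of other lineages. Of 20 resting Treg genes 6 were tested, 5 had a negative sign, and none was called by edgeR. Their median log2 fold change was -0.88, against 0.01 over all genes. Of the 6, 5 had an unadjusted p below 0.05, against 160 of all 1455 genes. Ms4a4b stood at 279, 467 and 310 CPM with αPD-1 and 166, 60.6 and 87.9 CPM with αPD-1 + corin (log2 -1.80 ± 0.388, adjusted p = 0.0684). Foxp1, a transcription factor of quiescence, stood at 503, 303 and 499 CPM against 177, 216 and 264 CPM (log2 -0.98, adjusted p = 0.184), and Klf2, which controls T cell egress, at 469, 353 and 391 CPM against 310, 190 and 198 CPM (log2 -0.77, adjusted p = 0.294). Il7r, the IL-7 receptor chain, went against the list at 89.3, 126 and 67.5 CPM with αPD-1 and 166, 152 and 286 CPM with αPD-1 + corin (log2 0.98, adjusted p = 0.325). All 4 of these, and Bach2, did not overlap between the groups, where 16.6% of all 1455 genes did not. The summed list stood at 2513 to 2573 CPM against 1255 to 1494 CPM in Tregs. These levels are shares of the UMIs of all Treg barcodes. Barcodes with at least 10 antigen-presenting cell UMIs held 21.7% of those UMIs with αPD-1 and 51.7% with αPD-1 + corin. Whether this lowered the resting genes, Izumo1r or the T cell receptor list below was not tested.

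Effector genes were nearer to 0, with 16 of 28 tested, 6 positive and 10 negative signs, 2 unadjusted p below 0.05 and a median log2 fold change of -0.17, and the summed list lay at 6420 to 7818 CPM against 6408 to 7778 CPM. Genes of glycolysis and hypoxia had a positive sign in 11 of 12 tested and a median of 0.39, and summed to 6266 to 7164 CPM against 7969 to 8349 CPM, but none was called by edgeR and 2 had an unadjusted p below 0.05, Pgam1 and Mif. Hif1a was the member with a negative sign. Suppressive mediators (8 tested, median 0.24), IL-2 and STAT5 genes (11 tested, 0.07), TNF receptor and NF-kB genes (12 tested, 0.03), Treg transcription factors (11 tested, -0.31), interferon-stimulated genes (14 tested, -0.08) and MHC class I (15 tested, -0.12) had no call by edgeR, and between 0 and 2 of their genes had an unadjusted p below 0.05. T cell receptor signalling (16 tested, median -0.17) had no call either, but 12 of its 16 genes had a negative sign. Of the 16, 7 did not overlap and 5 had an unadjusted p below 0.05, against 242 (16.6%) and 160 of all 1455 genes. Its summed level stood at 4493 to 5026 CPM against 3608 to 4143 CPM, without overlap. The chemokine receptor and homing list (8 tested, -0.16) and the TGF-β list (3 tested, 0.17) had no call either, with 0 and 1 unadjusted p below 0.05, nor had Ltb or Hdac1, the single tested genes of the cytokine and CoREST lists. DESeq2 called no member of any of these lists. Nt5e, the ectoenzyme CD73 that makes adenosine, stood at 145 to 189 CPM against 43.9 to 104 CPM (log2 -1.03, adjusted p = 0.343).

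The share of Tregs with at least 1 UMI of a gene was compared after each cell was thinned to 1000 UMIs, which left out no Treg. Of 53 genes of the marker, effector and resting lists, 8 (15.1%) did not overlap between the groups, a share near the 16.6% of all genes tested that did not overlap in CPM. Each of the 8 reached the smallest p that the exact permutation test can give, 0.1, so none passed the threshold, and the shares are given as values. On the αPD-1 + corin side lay the higher shares of Il2ra (14.3% to 20.8% against 22.4% to 45.5%), Havcr2, the inhibitory receptor TIM-3 (up to 4.17% against 9.09% to 15.4%), Id2 (14.3% to 29.2% against 30.6% to 54.5%) and Cxcr6 (no thinned UMI against 3.85% to 9.09%), although without thinning Cxcr6 was seen in 4.17% to 19.0% of αPD-1 Tregs and overlapped. The lower shares were those of Bach2 (16.7% to 20.8% against 0% to 7.69%), Foxp1 (23.8% to 41.7% against 11.5% to 22.4%), Klf2 (23.8% to 29.2% against 12.2% to 19.2%) and Nt5e (12.5% to 19.0% against 7.69% to 9.09%). Of these 8, Havcr2, Id2 and Bach2 also did not overlap without thinning. Ctla4 was seen in 45.8% to 57.1% against 46.2% to 61.2% of thinned Tregs, and Ikzf2 in 54.2% to 62.5% against 27.3% to 63.3%. Leaving out αPD-1 replicate 1 or 3 or αPD-1 + corin replicate 1 or 3 gave 15, 14, 15 or 17 genes that did not overlap. Leaving out a sample only narrows the range of its group, so this count cannot fall below 8 and is no check of the 8.

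Whether the treatment acted differently in Tregs than in the Foxp3-negative CD4 T cells of the same samples was tested as an interaction. No gene of 2257 was called by edgeR (0%), while 225 had an unadjusted p below 0.05, and DESeq2 called none, with 43 below 0.05. On simulated counts the edgeR fit found 18 of 200 genes that differed 2-fold (9%) and 156 of 200 that differed 4-fold (78%). The lack of calls is thus not shown to be a lack of difference. In the Foxp3-negative CD4 T cells 239 of 2430 genes (9.84%) were called between treatments, so the smaller number of calls in Tregs is not shown to be a smaller effect. Of 15 resting genes tested for the interaction, 12 had a positive sign (median 1.09) and of 21 effector genes 20 had a negative sign (median -0.84), against a median of 0.00 over all genes. In the comparator, 13 of 18 tested resting genes were called lower with αPD-1 + corin (4.49% of all genes were; median -1.83) and 5 of 18 effector genes higher (5.35% of all genes were; median 0.95). Markers of other lineages moved with the groups there as well, since all 6 tested neutrophil genes were called higher (median 4.81, sums of 142 to 479 CPM against 3430 to 13381 CPM) and 11 of 11 tested macrophage and monocyte genes had a positive sign, with Fcer1g and Ccr2 called. The comparator may also hold Tregs whose Foxp3 was missed, since 81 of the 155 Tregs held a single Foxp3 UMI. Its sums of the Treg markers, with Foxp3 at 0 by the rule, were 427 to 481 CPM against 475 to 815 CPM. The part of other lineages or of missed Tregs in the result was not tested. Lef1, a transcription factor of naive T cells that was singled out after its values were seen, stood at 516, 579 and 532 CPM against 9.82, 55.8 and 33.1 CPM in the comparator and at 67.0, 177 and 108 CPM against 33.2, 30.3 and 43.9 CPM in Tregs.

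Gzmb and Il7r came closest to a difference between the classes, and both were singled out after their values were seen. The Gzmb difference was -2.41 ± 0.458 (adjusted p = 0.118) where its level differed more between treatments in the comparator than in Tregs (values above). Il7r stood at 237, 263 and 266 CPM with αPD-1 and 167, 90.7 and 88.2 CPM with αPD-1 + corin in the comparator, where it was lower (log2 -1.14, adjusted p = 0.0359), and had the opposite sign in Tregs (interaction log2 2.18 ± 0.49, adjusted p = 0.129). Among barcodes with under 10 antigen-presenting cell UMIs, 7 genes were called, and Il7r was among them (log2 3.04, adjusted p = 0.0182). Between 0 and 2 genes were called when a sample was left out, 2 without αPD-1 replicate 1 and 1 each without αPD-1 replicate 2 and αPD-1 + corin replicate 1.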

How the data were processed

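CD45+ cells from B16-F10 tumors were profiled by 10x Genomics 5′ (GEM-X) single-cell RNA-Seq in 3 αPD-1 and 3 αPD-1 + corin samples. Per the labels and methods, the authors aligned reads to GRCm39 with Cell Ranger 8.0 and processed cells with Seurat 5.0.11, DoubletFinder and scTransform. The values in the deposited files are UMI counts, not normalized, over 32285 genes, and no annotation of cells was used here. Groups were taken from the sample labels. Barcodes had to hold 600 to 4000 genes and no more than 10% mitochondrial UMIs, and Tregs, T cells and Foxp3-negative CD4 T cells were chosen by gene counts. No doublet caller was run. The Cd8, B cell and C1q terms of the rule, with 2 further alternatives, limited barcodes with transcripts of other cells. They did not replace a doublet caller, since 37 of the 155 Tregs held at least 10 antigen-presenting cell UMIs.

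For each sample the UMIs of a class were added up, and genes passing filterByExpr entered the quasi-likelihood fit in edgeR 4.0.16 (TMM scaling, Benjamini-Hochberg adjustment, R 4.3.3), with DESeq2 1.42.0 as an alternative. Shares were compared by exact permutation tests (SciPy 1.17.1). The methods state tests over single cells, which treat cells as replicates, so sums per sample were tested instead. Nothing in the labels says that replicates are separate animals, so p-values measure the spread between these samples, which may be technical. Members and gene lists were chosen with earlier results of these data known, and Foxp3 counts chose the Tregs, so Foxp3 was not tested.

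Genes were named as follows. The 6 markers were always named. For treatment, up to 10 genes in each direction by log2 fold change were taken (adjusted p below 0.05, at least 20 CPM in the higher group, no overlap, and at least 5% of the CPM of the highest other lineage). For Tregs against Foxp3-negative CD4 T cells, 10 in each direction with the same sign in 6 samples were taken, and for the interaction up to 5. From each list up to 6 called members were taken, or otherwise the 2 of highest CPM. Positions come from the GENCODE annotation of GRCm39, matched by gene ID for 31674 of 32285 genes. The fits were tested on simulated counts with known changes. Some genes that were tested are not reported here.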

Additional observations from a re-analysis of the deposited data

How the results depend on the processing

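Treg shares rested on few cells in few samples. The difference in the share of T cells ranged from 0.504 to 6.80 percentage points when a sample was left out, that of CD4 T cells from 9.49 to 26.7, and that of all cells from -0.278 to 0.197. The share of CD4 T cells passed the threshold before adjustment in the edgeR test on numbers of cells (log2 ratio 0.79). The share of all cells turned to lower with αPD-1 + corin without any UMI of other lineages (-0.116), with at least 2000 UMIs (-0.0661) and with under 10 antigen-presenting cell UMIs (-0.0820).

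For treatment in Tregs, DESeq2 gave 13 calls, no filter on low counts 126, at least 2 Foxp3 UMIs 1, no upper limit on genes 13, no Malat1 limit 24, no UMI of other lineages 3, at least 2000 UMIs 1, under 10 antigen-presenting cell UMIs 3, and equal numbers of Tregs per sample 2, against 8. Leaving out a sample gave 1 to 21 calls. The replicate numbers did not pair the samples, since deviations of same-numbered samples correlated at -0.105, 0.0583 and -0.152, and not every sample correlated best with its own number. A fit with the replicate block gave 10 calls, 6 of them among the 8.

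For Tregs against Foxp3-negative CD4 T cells, DESeq2 gave 34 calls, no filter on low counts 135, no upper limit on genes 38, no UMI of other lineages 15, at least 2000 UMIs 42, no sample block 19 and a comparator without a Cd4 UMI 370, against 66. Leaving out a sample gave 30 to 84 calls. The interaction gave 15 calls with no filter on low counts, 1 with no Malat1 limit, 7 with under 10 antigen-presenting cell UMIs, and 0 to 2 when a sample was left out, against 0. Shares of Tregs with a UMI gave 10 to 17 genes without overlap when a sample was left out, against 8, and 11 without thinning. Leaving out a sample cannot lower that count, since it only narrows the range of a group.

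Of the values of single named genes under the alternatives, 521 kept their direction and side of the threshold, 167 kept their direction but lost the call, 8 gained it, and none changed direction. The settings with at least 2000 UMIs and with under 10 antigen-presenting cell UMIs were chosen after the data were seen. The causes of these changes were not tested. Some settings leave fewer cells and genes to test. With 11 to 49 Tregs per sample, genes of few UMIs could not be compared between treatments.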
